A study of Mus musculus with 80 samples.

Results

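Interferon response genes were examined in mouse left ventricle. The set holds 49 listed genes, and all 49 met the membership rule of a mean of at least 0.5 CPM, a count scaled to the size of its library, over 80 libraries. They were taken from a table of 56941 genes, of which 15879 carried enough counts to be tested. The rule used a mean over all libraries and no difference between groups, but the genes were listed with earlier results of these data known.

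Interferons are secreted proteins that warn cells of infection or of misplaced nucleic acid. Type I interferons act through the receptor pair IFNAR1 and IFNAR2 and a complex that includes STAT2 and IRF9 and binds interferon-stimulated response elements. Interferon gamma acts through IFNGR1 and IFNGR2, and promoters of many of its targets hold gamma-activated sites. Many target genes respond to both, while the guanylate-binding proteins and the immunity-related GTPases are known mainly as strong interferon gamma targets. In the heart such genes are expressed by cardiomyocytes, endothelial cells, fibroblasts and resident macrophages.

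The libraries were made from poly-A selected RNA of the left ventricle of C57Bl/6J mice and fall into 8 groups of 10. In each sex the groups were a mixed radiation field (labelled Mix) at 50 cGy on the normal diet, gamma radiation at 100 cGy on the normal diet, a Western diet at 0 cGy, and sham at 0 cGy on the normal diet; cGy, or centigray, measures absorbed dose. The labels give no age, no time after exposure and no components of the mixed field. Nothing in them ties each library to its own animal, so a p-value measures the spread between libraries, which may be technical. Each group has 5 libraries with title numbers 1-20 and 5 with title numbers 21-40. The labels do not say what the numbers stand for, and these 2 runs are given beside the pooled values because many members differed between them. The mixed field and gamma radiation also differ in dose, so field and dose cannot be told apart. In each sex the 3 tested conditions share the same 10 sham libraries.

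Promoter sequence is shown for 5 members, 3 of them among the 10 that vary most between libraries, because it holds the motif that the interferon-activated factors are known to bind. The motif searched was GAAA, any 2 bases and again GAAA, on either strand, the core of the interferon-stimulated response element. It was found in 25 of 49 promoters (51%) in GRCm39, taken as 250 bases before to 50 bases after the start, against 470 of 13542 promoters (3.47%) of the other tested protein-coding genes. With the 250 bases upstream alone the counts were 18 of 49 (36.7%) and 402 of 13542 (2.97%). The gamma-activated site TTCNNNGAA, a palindrome, stood in 13 of 49 (26.5%) and 1020 of 13542 (7.53%); both motifs may share bases. A match describes the letters and no binding was measured. The windows below run 5′ to 3′ on the strand of the gene, and capitals mark the response element core or its reverse complement, with overlapping matches joined. Oas2 (an oligoadenylate synthetase; chr5:120887940-120888029, minus strand), Tgtp2 (an immunity-related GTPase; chr11:48955060-48955149, minus strand) and Zbp1 (a Z-form nucleic acid sensor; chr2:173060725-173060815, minus strand) are the 3 from the most variable members. Isg15 (a ubiquitin-like modifier; chr4:156285304-156285381, minus strand) holds 3 overlapping matches, the nearest beginning 38 bases before the start. Ifit3 (an RNA-binding antiviral protein; chr19:34560767-34560856, plus strand) has the same letters as its copy Ifit3b at chr19:34585163-34585252.
Oas2: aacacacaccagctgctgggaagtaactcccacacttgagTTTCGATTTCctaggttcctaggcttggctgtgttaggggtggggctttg
Tgtp2: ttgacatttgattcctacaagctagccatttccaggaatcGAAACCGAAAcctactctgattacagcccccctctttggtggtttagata
Zbp1: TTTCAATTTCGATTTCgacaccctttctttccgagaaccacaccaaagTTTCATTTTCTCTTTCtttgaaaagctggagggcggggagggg
Isg15: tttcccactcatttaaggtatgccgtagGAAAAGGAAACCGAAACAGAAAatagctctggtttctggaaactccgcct
Ifit3: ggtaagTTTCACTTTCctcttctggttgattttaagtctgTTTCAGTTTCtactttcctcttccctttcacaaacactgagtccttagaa
Members with the motif in the window had a median standard deviation (SD) of 0.429 in log2 CPM over the 80 libraries, and those without it had 0.37.

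Libraries held 13484776 to 22143504 counts, with a median of 16383718. The summed level of 9 ventricular cardiomyocyte markers was between 48500 and 77400 CPM in every library, while the sum of 5 atrial markers ran from 2.84 to 1900 CPM and was high mainly in male libraries. The closest pair of libraries within a group was female gamma replicates 8 and 9, with a chi-square of 1.64 per degree of freedom, against 4.31 to 14.1 for the closest pair of each other group. They differed beyond counting noise and are counted as 2 libraries, but may be a near-repeat. They also had the highest members' means of female gamma, so values with both as 1 library stand beside the results they move. In 1 female gamma library (replicate 7) Xist, the RNA of X inactivation, was at 0.129 CPM, where the other 39 female libraries had 102 to 280 CPM and male libraries at most 0.692. The Y-linked genes Ddx3y, Eif2s3y, Kdm5d and Uty were at 0 in it, as in nearly all female libraries, where male libraries had 8.04 to 111 CPM. It is kept under its label of female. Without it the members' median change in female gamma was -0.14, against -0.13 with it. Male gamma replicate 10 stood apart in T and natural killer cell markers, as given below. Because these are whole-tissue samples, fewer cells of a type and less RNA per cell cannot be told apart.

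At baseline the members spanned a wide range of levels, compared here as CPM per kilobase of exon over the 20 sham libraries. Bst2, which tethers budding virions, was highest at 21.7 CPM per kilobase (lowest 15.7, highest 47.6 among the libraries), followed by Ifi27l2a, a mitochondrial and nuclear-membrane protein, at 17.6, and by Lgals3bp, a secreted galectin-binding glycoprotein, at 10.5. The ranges of Bst2 and Ifi27l2a overlapped. Gbp2 (7.09), Irgm2 (7.03), Trim25 (7), Iigp1 (6.13), Isg15 (5.73), Oas2 (5.36) and Ifit3 (5.35) followed in CPM per kilobase, and neighbours among these did not differ beyond their spread. At the low end were Ifi44 (0.811), the dynamin-like GTPase Mx2 (0.787), Oas1a (0.621), Zbp1 (0.560) and Mx1 (0.348) in CPM per kilobase. In level per kilobase Bst2 stood at percentile 93.4 of the tested genes and Mx1 at percentile 18. The remaining 34 members lay between 0.857 (Dhx58, a regulator of RIG-I-like receptors) and 5.23 CPM per kilobase (Rsad2, the enzyme viperin).

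**Figure D1:**
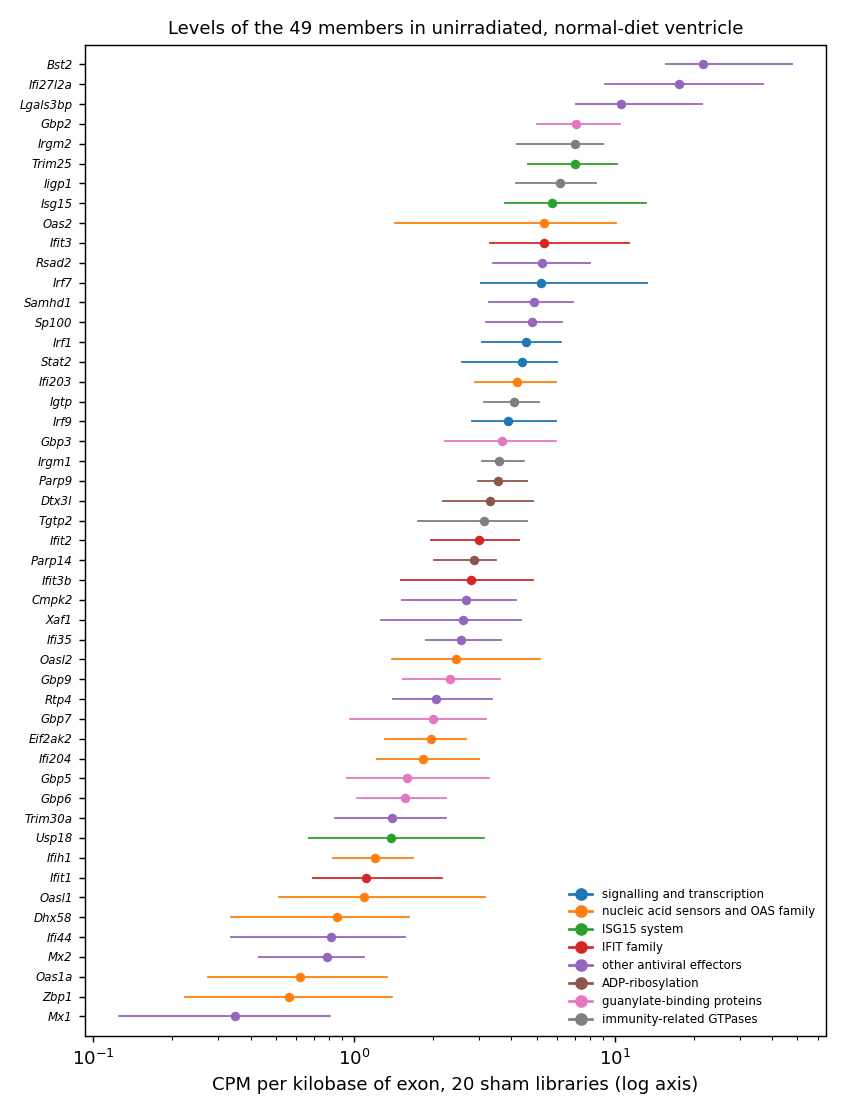
Level of each member in the 20 sham libraries, in CPM per kilobase of exon on a log axis, ordered from highest to lowest; points are means, coloured by role, and lines span the lowest to highest library. Bst2 is highest at 21.7 and Mx1 lowest at 0.348 CPM per kilobase.

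Levels of some members rest on shared sequence. Of their transcript windows of 100 bases, 82.2% of Gbp6 also occur in Gm43302, 80.4% of Tgtp2 in Tgtp1, 40.3% of Oas1a in Oas1g and 27.2% of Ifit3b in Ifit3. Exons of 8 members overlap exons of other genes over at least 10% of their length, led by Irf1 at 46% and Isg15 at 31.1%. No source used here gives the counting rules or strand setting, and reads of these genes may have been split or shared.

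The members moved together from library to library. The Pearson correlation of a member's log2 CPM with the mean of the other 48 had a median of 0.68 over the 80 libraries (0.27 for Eif2ak2, the double-stranded RNA-activated kinase, to 0.89 for Oasl2), and 44 members were above 0.5; the points share library depth and cell makeup. The mean log2 CPM over the members was highest in male gamma replicate 10 (4.51), male mixed replicate 5 (4.40), male mixed replicate 8 (4.30) and male gamma replicate 9 (4.29). Female sham replicate 9 came next at 4.26, so an unirradiated library was among the highest. By group the lowest, median and highest library means were 3.27, 3.70 and 4.40 in male mixed, 3.39, 3.73 and 4.51 in male gamma, 3.20, 3.65 and 3.86 in male Western diet, and 3.29, 3.54 and 3.81 in male sham libraries. In females they were 3.54, 3.99 and 4.13 in mixed, 3.27, 3.58 and 4.21 in gamma, 3.54, 3.68 and 4.14 in Western diet, and 3.48, 3.73 and 4.26 in sham libraries. All groups overlapped, and the spread was widest in male gamma (SD 0.38 log2) and male mixed (SD 0.36) and narrowest in male sham (SD 0.18). Female gamma (SD 0.35) was close to the widest and female mixed (SD 0.19) to the narrowest.

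**Figure D2:**
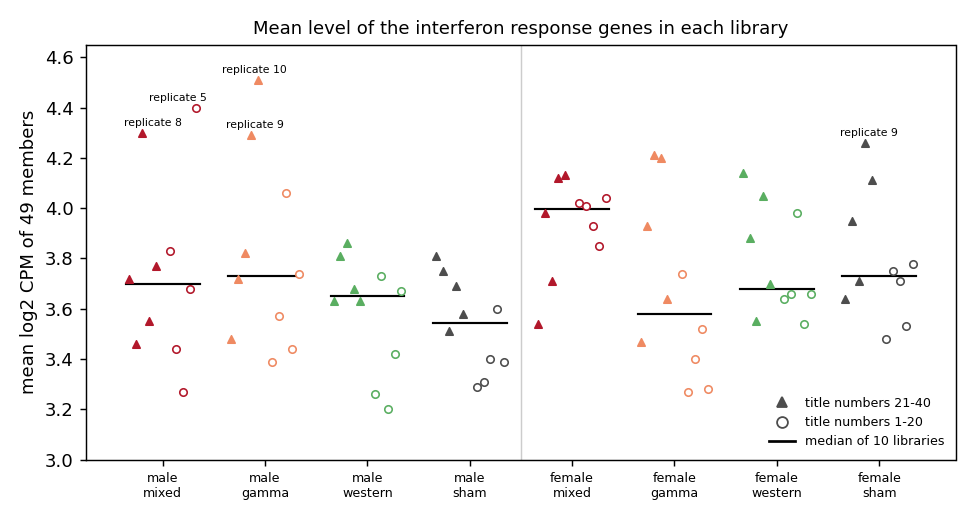
Mean log2 CPM over the 49 members in each of the 80 libraries, by group, with triangles for title numbers 21-40 and circles for 1-20; horizontal lines are group medians. Male gamma replicate 10 (4.51) and male mixed replicate 5 (4.40) are the highest, and all groups overlap.

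The high libraries differed in which roles were raised. A role's level in a library is given as its members' mean difference in log2 CPM from their 80-library medians. In male mixed replicate 5 the IFIT family was 1.09 above its medians and the immunity-related GTPases 0.44, and the leading member was Irf7, the transcription factor that amplifies type I interferon production, at 62.2 CPM against an 80-library median of 19.9. In male gamma replicate 9 the order was the other way, with the IFIT family at 0.28 and the immunity-related GTPases at 1.07. In male gamma replicate 10 the immunity-related GTPases stood at 1.24, and Zbp1 led with 10.1 CPM against a median of 2.49. Female mixed replicate 10 had the signalling factors at 0.88 and the immunity-related GTPases at -0.16. Over the 80 libraries the Spearman correlation between roles was 0.96 for the nucleic acid sensors and OAS family with the other antiviral effectors, and 0.49 for the immunity-related GTPases with the ISG15 system. These correlations describe libraries that share depth and tissue makeup.

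The 8 libraries in which the immunity-related GTPases (Igtp, Irgm1, Irgm2, Iigp1 and Tgtp2) stood highest were all irradiated: 4 of male gamma, 1 of male mixed, 2 of female mixed and 1 of female gamma. Their values ran from 0.59 to 1.24, while the highest was 0.43 among the 40 libraries that were not irradiated (a male Western diet library), 0.07 among male sham and 0.24 among female sham libraries. The other 40 of the 80 libraries were irradiated. This role was singled out after its values were seen, and each other role had sham or Western diet libraries among its 8 highest. The guanylate-binding proteins came close, since their 6 highest libraries were also irradiated (0.49 to 1.11). Female sham replicate 7 (0.47) and male Western diet replicate 8 (0.44) followed. Group medians of the immunity-related GTPases were 0.43 in male gamma and 0.16 in female mixed, but -0.09 in male mixed and -0.19 in female gamma. They were 0.00 in male sham and 0.05 in female sham, so the irradiated groups did not all lie above sham. T and natural killer cell markers summed to 72.1 CPM in male gamma replicate 10 against an 80-library median of 3.65; Cd3e was at 10.2 CPM against a median of 0.233 and Nkg7 at 19.5 against 0.357, while Gzma and Ncr1 were at 0. In the next 4 libraries of this order the same sum was 6.03 (female mixed replicate 2), 2.62 (male gamma replicate 9), 3.79 (male gamma replicate 5) and 5.30 CPM (male gamma replicate 3). Macrophage markers summed to 517 CPM in male gamma replicate 10 against a median of 347, and over the 80 libraries the Spearman correlation of their sum with the mean of the members was 0.50; their part in the members' levels was not tested.

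Gamma radiation in males was compared with male sham libraries to ask how the heart differed after a photon exposure. No member passed the threshold of an adjusted p of 0.05 (edgeR quasi-likelihood test, Benjamini-Hochberg adjustment over all genes), where 0.176% of the tested genes did. At an unadjusted p under 0.05 there were 17 of 49 members, beside 5.43% of all genes, and 48 of 49 had a positive log2 change with a median of 0.29, beside 0.00 for all genes. All 5 immunity-related GTPases and all 6 guanylate-binding proteins were among the 17, with medians of 0.64 and 0.55. The signalling factors (median 0.26), nucleic acid sensors and OAS family (0.25) and IFIT family (0.34) were positive in every member, with 1, 1 and 2 at an unadjusted p under 0.05. Because the members move together, these counts are not counts of independent genes.

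Irgm2, which controls the loading of other immunity-related GTPases onto vacuoles, was at 19.9, 36.8 and 57.8 CPM (lowest, median, highest) in male gamma and 15.7, 24.4 and 26.6 CPM in male sham libraries. At least 5 male gamma libraries lay above every male sham library, though the groups overlapped. Its mean was 37 ± 13.4 CPM in male gamma and 23.8 ± 3.14 CPM in male sham (SD, n = 10 each), a log2 change of 0.64 ± 0.17 (SE; edgeR adjusted p = 0.0953). The change was 0.54 within title numbers 1-20 and 0.74 within 21-40. Without male gamma replicate 10 it was 0.55 (adjusted p = 0.999), and it passed the threshold without male gamma replicate 1 (adjusted p = 0.0256), 6 (0.0333) or 7 (0.0497).

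Igtp, also called Irgm3, was at 12.8, 28.5 and 57.6 CPM in male gamma and 15.2, 19 and 23.3 CPM in male sham libraries, with a log2 change of 0.68 ± 0.20 (SE; edgeR adjusted p = 0.216). Iigp1, an effector that is recruited to parasite vacuoles, averaged 56.1 ± 23.6 CPM in male gamma and 37.1 ± 5.19 CPM in male sham (log2 change 0.60 ± 0.19). Tgtp2, another effector of the family, averaged 15.4 ± 9.28 and 8.92 ± 1.91 CPM in male gamma and male sham (log2 change 0.80 ± 0.24); it was 0.37 within title numbers 1-20 and 1.19 within 21-40. In these genes the male gamma libraries were spread widely from sham-like to high values, and the SD was over 4 times the sham SD in each of the 4 examples. Without male gamma replicate 10 the comparison had 11 members at an unadjusted p under 0.05, 46 positive and a median of 0.20, and without replicate 9 it had 13, 47 and 0.23. Of the T and natural killer cell markers 5 of 11 could be tested, 1 of them (Nkg7) was higher, and the median was 1.05. Without male gamma replicate 10 none was called and the median was 0.49, with Nkg7 at 0.80 ± 0.50 (edgeR adjusted p = 0.999). The summed CPM of these markers had medians of 3.79 in male gamma and 3.61 in male sham libraries. Macrophage markers were positive in 10 of 10 with a median of 0.20 and none called. Whether these cells contributed was not tested.

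**Figure D3:**
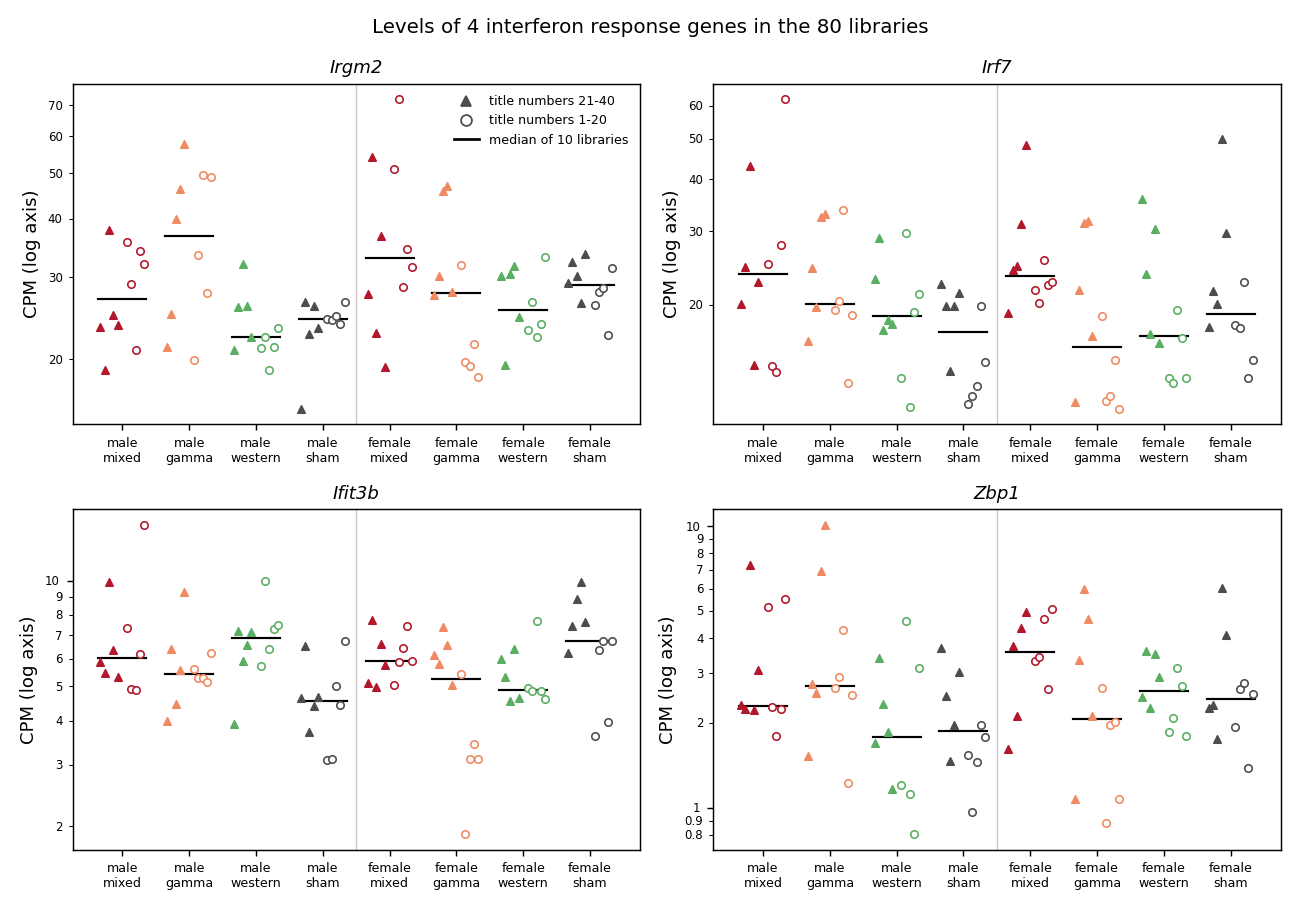
CPM of Irgm2, Irf7, Ifit3b and Zbp1 in each library of the 8 groups, on log axes, with triangles for title numbers 21-40, circles for 1-20 and group medians as lines. Male gamma libraries reach 57.8 CPM in Irgm2 where male sham libraries stop at 26.6, and male mixed replicate 5 is the highest library in Irf7 at 62.2 CPM.

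The mixed field in males had its highest median by role in the IFIT family, while Zbp1 (0.75), Irf7 (0.67) and Gbp6 (0.64) had the largest log2 changes of single members. No member passed the adjusted threshold, where 0.0693% of the tested genes did, and 17 of 49 had an unadjusted p under 0.05, beside 8.17% of all genes. Positive log2 changes were found for 44 of 49 members with a median of 0.24, beside 0.01 for all genes. All 4 IFIT genes (median 0.53) and 3 of 6 guanylate-binding proteins (median 0.38) were among the 17, and none of the immunity-related GTPases was (median 0.18). Ifit3b was at 4.87, 6.02 and 14.4 CPM in male mixed and 3.09, 4.55 and 6.75 CPM in male sham libraries. All 10 male mixed libraries lay above the male sham median, with overlap up to 6.75 CPM. Its log2 change was 0.61 ± 0.18 (SE; edgeR adjusted p = 0.214).

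Ifit1, which binds viral RNA lacking the 2′-O-methylated cap, averaged 10.5 ± 4.75 CPM in male mixed and 6.83 ± 1.28 CPM in male sham libraries (log2 change 0.63 ± 0.20; edgeR adjusted p = 0.294). Ifit2 averaged 21.7 ± 5.94 and 15.9 ± 2.26 CPM in the same groups (0.45 ± 0.14), and Gbp6 16.3 ± 7.52 and 10.5 ± 3.01 CPM (0.64 ± 0.20). Irf7 was at 13.8, 23.7 and 62.2 CPM in male mixed and 11.6, 17.2 and 22.5 CPM in male sham libraries. These values rest in part on replicates 5 and 8, since without either one 7 members had an unadjusted p under 0.05 and the median was 0.18. Within title numbers 1-20 the members' median was 0.39 and within 21-40 it was 0.13. The sum of atrial markers was 8.56, 19.2 and 1900 CPM in male mixed libraries, and the highest value was in replicate 8. In male sham libraries it was 6.75, 235 and 637 CPM, so the male mixed median was the lower. The sum of 7 neutrophil markers was 0.427, 2.74 and 43.7 CPM in male mixed and 0.423, 1.85 and 4.47 CPM in male sham libraries. The part of these cells in the members' levels was not tested.

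The Western diet in males had its largest values in the same family. No member passed the adjusted threshold (0.397% of the tested genes did), 26 of 49 were positive, and the median was 0.02. An unadjusted p under 0.05 was found for 5 members, a smaller share than the 12.8% of all genes. The 4 IFIT genes made up 4 of the 5, with a median of 0.46, and Eif2ak2 was the other (13 ± 2.02 CPM in male Western diet and 10.4 ± 1.85 CPM in male sham, log2 change 0.32 ± 0.13). Ifit3b was at 3.92, 6.86 and 10 CPM in male Western diet and 3.09, 4.55 and 6.75 CPM in male sham libraries, and 9 of 10 Western diet libraries lay above the sham median (log2 change 0.55 ± 0.18; edgeR adjusted p = 0.148). The 14 other antiviral effectors had a median of -0.07 and the immunity-related GTPases -0.02. Within title numbers 1-20 there were 3 members called, a smaller share than the 7.53% of the tested genes. Ifit3b had a log2 change of 0.72 (edgeR adjusted p = 0.042) there and 0.36 within 21-40. Eif2ak2 had 0.59 (0.0219) there and 0.07 within 21-40. Dtx3l, the ubiquitin ligase partner of Parp9, was the other (0.48, 0.0318). The male mixed, gamma and Western diet values share the sham libraries, and male sham was low in the IFIT family, with a median of -0.30 against the 80-library medians.

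**Figure D4:**
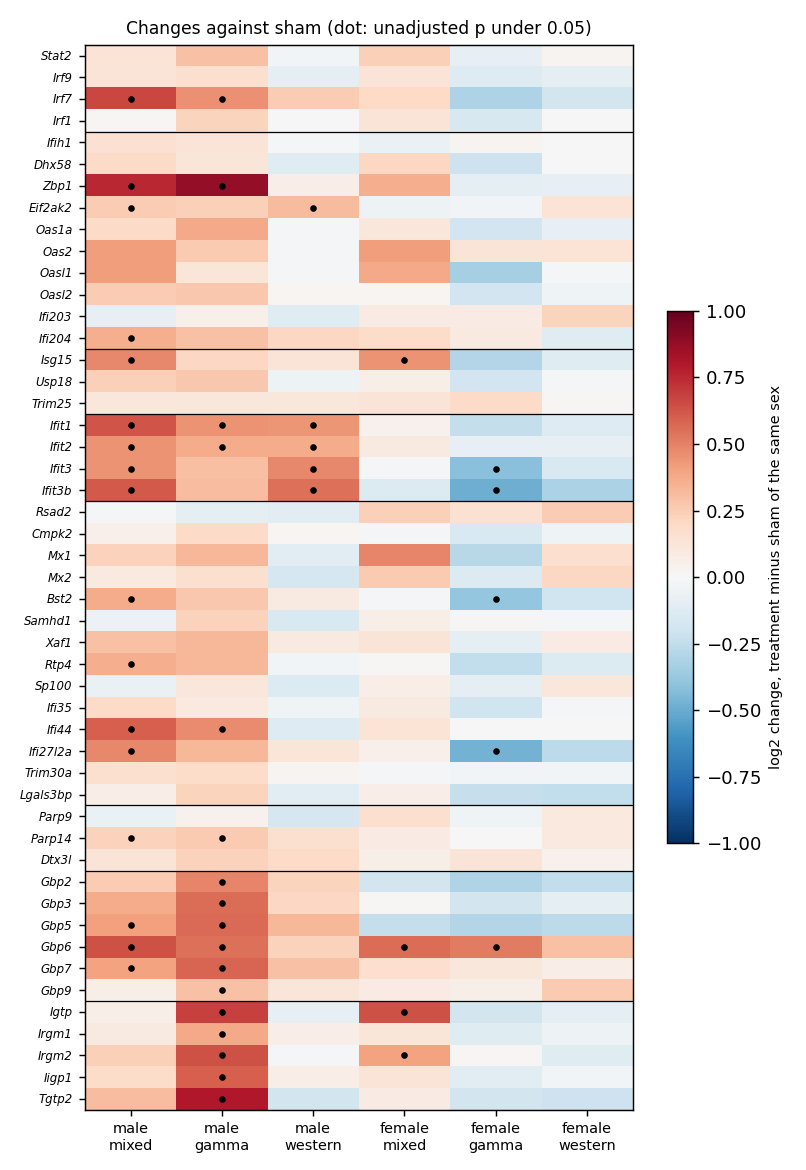
Log2 change against sham of each of the 49 members, in rows by role, for the mixed field, gamma radiation and the Western diet in males and females; dots mark an unadjusted p under 0.05. Male gamma is positive in 48 of 49 members and female gamma in 13 of 49, and no cell passes an adjusted p of 0.05.

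In females the values were smaller in the mixed field and mostly negative in gamma radiation. In female mixed libraries no member was called (0% of the tested genes were), 4 had an unadjusted p under 0.05 beside 6.47% of all genes, and 40 of 49 were positive with a median of 0.09. Igtp led with 15.2, 21.1 and 72.9 CPM in female mixed and 14.3, 18.1 and 22.8 CPM in female sham libraries. The 72.9 CPM library lay far above the rest, and the groups otherwise overlapped (log2 change 0.64 ± 0.20; edgeR adjusted p = 0.701). Gbp6 (0.56), Isg15 (0.45) and Irgm2 (0.40) were the other 3 members, on the log2 scale. Without the 72.9 CPM library (female mixed replicate 2) Igtp was at 0.37 ± 0.19 and Irgm2 at 0.24 ± 0.16, and 2 members had an unadjusted p under 0.05. Without female sham replicate 9 the members' median was 0.15 and 6 were at that level. The members' median was 0.26 within title numbers 1-20 and -0.03 within 21-40.

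In female gamma libraries no member was called (0% of the tested genes were), 5 had an unadjusted p under 0.05 beside 10.3% of all genes, and 13 of 49 were positive with a median of -0.13. None of the 4 IFIT genes was positive (median -0.33). Ifit3b was at 1.90, 5.25 and 7.38 CPM in female gamma and 3.61, 6.73 and 9.91 CPM in female sham libraries. Only 1 of 10 female gamma libraries lay above the female sham median (log2 change -0.49 ± 0.18; edgeR adjusted p = 0.391). Bst2 averaged 22.7 ± 5.84 CPM in female gamma and 29.7 ± 10.9 CPM in female sham (log2 change -0.39 ± 0.16), and Gbp6 went the other way with 15.4 ± 5.10 and 10.7 ± 2.33 CPM (0.52 ± 0.20). The members' median was -0.28 within title numbers 1-20 and -0.03 within 21-40. Without female sham replicate 9, the highest female sham library, it was -0.06 with 2 members at an unadjusted p under 0.05, and Bst2 was at -0.23 ± 0.15. With female gamma replicates 8 and 9 as 1 library it was -0.19 with 7 at that level.

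On the Western diet in females no member was called (0.0189% of the tested genes were) and none had an unadjusted p under 0.05, beside 7.39% of all genes. The median was -0.03 with 19 of 49 positive. The largest values were -0.32 ± 0.18 for Ifit3b (5.38 ± 1.01 CPM in female Western diet and 6.74 ± 1.94 CPM in female sham) and 0.26 ± 0.15 for Gbp9, both log2 changes with SE.

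The difference between the sexes was tested as male minus female of each change. For gamma radiation no member was called (0% of the tested genes were), while 18 of 49 had an unadjusted p under 0.05 beside 5.38% of all genes, 46 were positive and the median was 0.45. All 4 IFIT genes (median 0.71) and all 5 immunity-related GTPases (0.70) were among the 18. Gbp2, which coats pathogen vacuoles, had a difference of 0.79 ± 0.22 log2 (SE; edgeR adjusted p = 0.37), Gbp5, which acts in inflammasome assembly, 0.87 ± 0.27, Igtp 0.86 ± 0.29 and Ifit3b 0.80 ± 0.25. The median was 0.50 within title numbers 1-20 and 0.37 within 21-40. It was 0.34 without male gamma replicate 10 and 0.33 without female sham replicate 9. With female gamma replicates 8 and 9 as 1 library it was 0.53. For the mixed field the median was 0.09 with 0 called (0.0315% of the tested genes) and 4 at an unadjusted p under 0.05 (9% of all genes). For the Western diet it was 0.06 with 0 called (0.447%) and 7 at an unadjusted p under 0.05 (9.24%), among them all 4 IFIT genes. Ifit3b had the smallest adjusted p there (difference 0.87 ± 0.25 log2, edgeR adjusted p = 0.106), which was 0.0491 without male sham replicate 5 and 0.0474 without male Western diet replicate 6.

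Over the mean of both sexes no member was called for the mixed field (0% of the tested genes were), gamma radiation (0%) or the Western diet (0%). The mixed field had 48 of 49 members positive with a median of 0.18 and 14 at an unadjusted p under 0.05 (5.7% of all genes). Gamma radiation had 39 positive, a median of 0.10 and 5 at that level (10.9%), and the Western diet 25, 0.00 and 1 (11.4%). The gamma values were 33, 0.04 and 3 without male gamma replicate 10, and 33, 0.06 and 4 with female gamma replicates 8 and 9 as 1 library. Without male mixed replicate 8 the mixed field had 44 positive, a median of 0.14 and 9 at that level. Gbp6 had the smallest adjusted p in the mixed field (log2 change 0.60 ± 0.14, edgeR adjusted p = 0.162) and in gamma radiation (0.53 ± 0.14, 0.222), with the caution on its copy. In the mixed field the median was 0.35 within title numbers 1-20, with 31 members at an unadjusted p under 0.05 (14.1% of all genes) and 1 called (Gbp6, adjusted p = 0.02; 0.145% of the tested genes), and 0.01 within 21-40. In the Western diet 3 members were called within title numbers 1-20, a smaller share than the 6.53% of the tested genes. They were Eif2ak2 (log2 change 0.43), Dtx3l (0.39) and Parp14, an ADP-ribosyltransferase (0.33). Parp14 was at -0.06 within 21-40, and the members' median was 0.05 within 1-20 and -0.02 within 21-40.

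The mixed field was then set against gamma radiation within each sex. In males the immunity-related GTPases had negative mixed minus gamma values in all 5 members (median -0.42, all 5 at an unadjusted p under 0.05), against a median of -0.03 over all members, with 0 called (0.573% of the tested genes were) and 6 at an unadjusted p under 0.05 (8.89%). Igtp was at 13.2, 16.5 and 32.1 CPM in male mixed and 12.8, 28.5 and 57.6 CPM in male gamma libraries. The groups overlapped over the whole mixed range (log2 difference -0.62 ± 0.20; edgeR adjusted p = 0.172). The role's median was -0.38 within title numbers 1-20 and -0.50 within 21-40. Without male gamma replicate 10 the role's median was -0.32 with 1 of the 5 at an unadjusted p under 0.05, and the median over all members turned to 0.04 with 2 members at that level. Without replicate 9 the role's median was -0.35 with 3 of the 5, and the median over all members was 0.01 with 4 at that level.

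In females mixed minus gamma was positive in 44 of 49 members with a median of 0.24, 0 called (0.0252% of the tested genes were) and 13 at an unadjusted p under 0.05 (14%). Igtp was at 15.2, 21.1 and 72.9 CPM in female mixed and 9.52, 14.4 and 25.7 CPM in female gamma libraries. All 10 female mixed libraries lay above the female gamma median (log2 difference 0.82 ± 0.20; edgeR adjusted p = 0.118, DESeq2 adjusted p = 0.047), and the difference was 0.55 ± 0.19 without female mixed replicate 2. Over all members 21 had an unadjusted p under 0.05 and the median was 0.31 with female gamma replicates 8 and 9 as 1 library, and 8 were at that level without female mixed replicate 10 or female gamma replicate 2, and 7 without female gamma replicate 5. Isg15 averaged 6.68 ± 2.10 CPM in female mixed and 3.98 ± 1.32 CPM in female gamma (0.74 ± 0.20), and Oasl1, which restrains Irf7 translation, 3.98 ± 0.936 and 2.43 ± 0.799 CPM (0.71 ± 0.23). The values were larger within title numbers 1-20, where 48 of 49 were positive, the median was 0.45 and 5 were called (0.39% of the tested genes). These were Igtp (log2 difference 1.34), Isg15 (1.12), Irgm2 (0.98), Lgals3bp (0.89) and Parp9 (0.49), named after their values were seen. Within 21-40 the median was -0.02, and the difference between the runs was not tested. All 6 erythroid markers were also positive in female mixed minus gamma, with a median of 1.47 log2 and none called. Their sum was 205, 615 and 3780 CPM in female mixed and 99.8, 261 and 821 CPM in female gamma libraries. The 3780 CPM was in female mixed replicate 5. The part of these markers' cells was not tested.

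Without treatment, male sham hearts stood below female sham hearts in most members. Of 49, 46 had a negative male minus female value, the median was -0.28 beside -0.01 for all genes, and 17 had an unadjusted p under 0.05 (11.9% of all genes). Trim25, the ubiquitin ligase that activates RIG-I, was the 1 member called, where 1.2% of the tested genes were called and 0.472% were lower. It was at 26.7, 33.3 and 44.5 CPM in male sham and 32.2, 45.1 and 58.8 CPM in female sham libraries. No male library reached the female median (log2 difference -0.37 ± 0.10; edgeR adjusted p = 0.0411), and the value was -0.46 within title numbers 1-20 and -0.30 within 21-40, neither called. The call was lost when any 1 of 12 of the 20 sham libraries was left out (male sham replicates 1, 2, 3, 4, 5 and 8 and female sham replicates 2, 4, 6, 7, 8 and 10), with adjusted p up to 0.136. Without female sham replicate 9 the members' median was -0.21 with 7 at an unadjusted p under 0.05, and without replicate 10 it was -0.23 with 11. Ifi44 was called without female sham replicate 1 (-0.85, adjusted p = 0.0393).

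All 4 IFIT genes were lower in sign in male sham (median -0.45), Ifi44 had a log2 difference of -0.76 ± 0.23 (edgeR adjusted p = 0.0865) and Gbp5 -0.57 ± 0.19 (0.143). No male sham library was above the female sham median in Ifi44 (3.71 ± 1.08 CPM in male sham and 6.28 ± 2.18 CPM in female sham) or in Gbp5 (9.30 ± 1.55 and 13.8 ± 4 CPM). Gbp5 was called within title numbers 21-40 (-0.85, adjusted p = 0.0298; 3.5% of the tested genes were). Macrophage markers were negative in 10 of 10 with a median of -0.34. Their sum was 268, 330 and 440 CPM in male sham and 309, 354 and 887 CPM in female sham libraries. The 887 CPM library was female sham replicate 10. The sum of atrial markers was 6.75, 235 and 637 CPM in male sham and 4.36, 8.34 and 15.9 CPM in female sham libraries. Of the 5 atrial markers 4 were called higher in male sham. The part of these cells in the members' difference was not tested.

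Among the comparisons the runs of title numbers gave the most calls, for the members as for all tested genes. Title numbers 21-40 were compared with 1-20 within each sex, 20 libraries each. In males 13 of 49 members were higher and 0 lower, a smaller called share than the 29.8% of all tested genes. Of all tested genes 17% were called higher. The members' median was 0.17 and 42 were positive. Oas2 was at 20, 24.9 and 48.1 CPM in title numbers 21-40 and 5.07, 12.5 and 41.6 CPM in 1-20. The lowest library of 21-40 lay above the median of 1-20, and the log2 change was 1.07 ± 0.15 (edgeR adjusted p = 1.37e-07). Ifi203, a DNA-binding protein of the PYHIN family, was at 26.8, 35 and 51.9 CPM in 21-40 and 14.7, 22.8 and 38.7 CPM in 1-20 (0.62 ± 0.07; adjusted p = 5.2e-10). Xaf1, a pro-apoptotic protein (0.68), Gbp9 (0.55), Mx2 (0.53), Stat2 (0.51), Trim30a (0.51), Sp100, a nuclear body protein (0.44), Oasl2 (0.38) and Samhd1, a nucleotide-depleting restriction factor (0.32), also rose on the log2 scale. None of the IFIT genes or immunity-related GTPases was called.

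In females 19 of 49 were higher and 0 lower, where 24% of the tested genes were called and 11.9% were higher; the median was 0.24 and 45 were positive. Irf7 was at 11.7, 24 and 49.8 CPM in title numbers 21-40 and 11.3, 17.1 and 25.6 CPM in 1-20, and 16 of the 20 libraries of 21-40 lay above the median of 1-20 (log2 change 0.62 ± 0.15; edgeR adjusted p = 0.000929). Gbp5 was at 10.3, 13.6 and 23.8 CPM in 21-40 and 4.34, 10.2 and 12.8 CPM in 1-20 (0.57 ± 0.12; adjusted p = 0.000203). Usp18, the ISG15 protease that also damps the type I receptor, was at 3.14, 5.39 and 10.2 CPM in 21-40 and 2.72, 3.88 and 5.13 CPM in 1-20 (0.53 ± 0.11; adjusted p = 0.00029). All 4 signalling factors and all 4 IFIT genes rose (medians 0.29 and 0.36), and none of the immunity-related GTPases was called. Oasl1 (0.46), Oas2 (0.41), Gbp3 (0.41), Ifit3 (0.40), Rtp4 (0.39), Ifit1 (0.37) and Oasl2 (0.37) were the other members of largest log2 change. Oas2 and Ifit1 lay close to the threshold. The Oas2 call was lost when any 1 of 14 libraries was left out (edgeR adjusted p up to 0.126, without female mixed replicate 10). The Ifit1 call was lost when any 1 of 16 was left out (edgeR adjusted p up to 0.0817, without female gamma replicate 8). Oasl1 was lost without female sham replicate 9 (0.0854) and Oasl2 without female mixed replicate 10 (0.0531). Stat2, Irf9, Ifit3b and Gbp9 were also lost without some single libraries, with adjusted p up to 0.0774, 0.0593, 0.0508 and 0.107. With female gamma replicates 8 and 9 as 1 library Oas2 (adjusted p = 0.0528) and Ifit1 (0.0766) were lost, and 16 members were called. Ifit1 was lost with voom as well (0.0672).

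**Figure D5:**
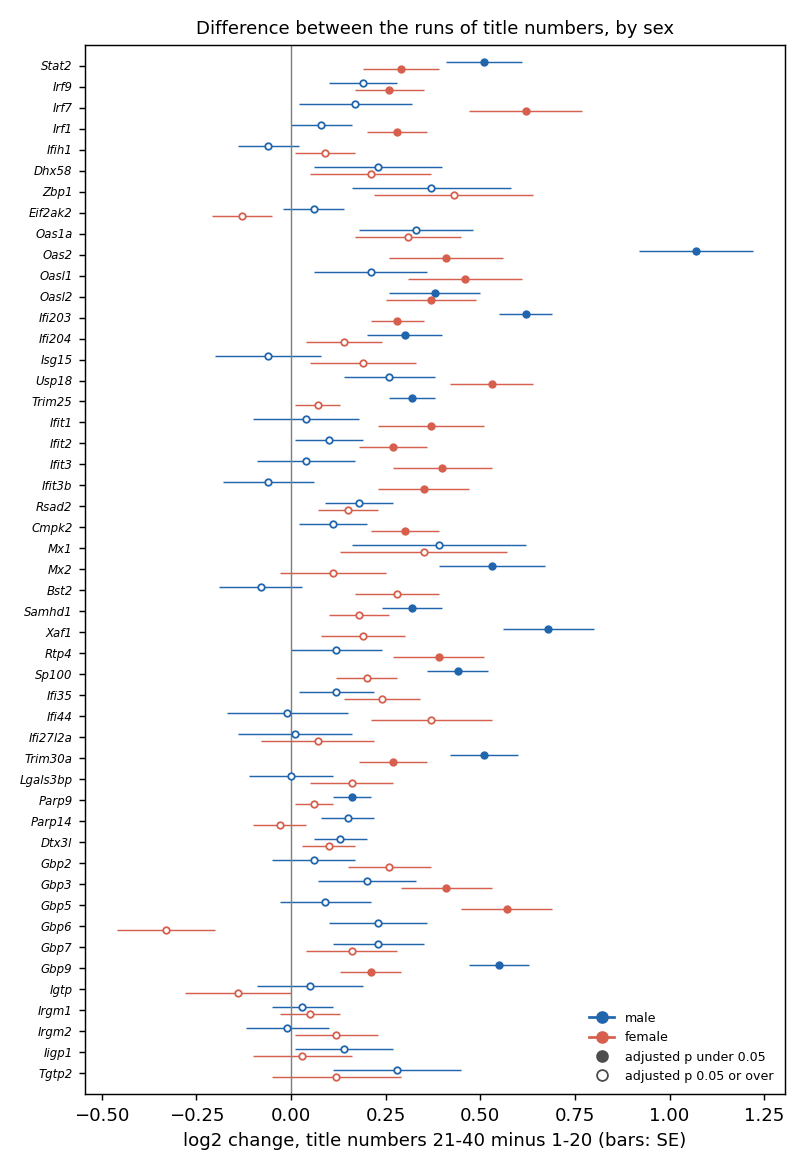
Log2 change of each member between title numbers 21-40 and 1-20, for males and females, with SE bars and filled points for an adjusted p under 0.05. Oas2 is the largest in males at 1.07 and Irf7 in females at 0.62.

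The 2 sexes were then compared in this change. The male minus female difference was called for 7 of 49 members, 6 higher and 1 lower. This was a smaller share than the 26.9% of all tested genes (14.6% higher and 12.3% lower). Oas2 (0.66), Gbp6 (0.55), Xaf1 (0.49), Ifi203 (0.34), Gbp9 (0.34) and Trim25 (0.25) had the larger change in males and Gbp5 (-0.48) in females, all on the log2 scale. The Trim25 difference was 0.23 and lost its call (adjusted p = 0.0514) with no filter on low counts. The median over the members was 0.01. Cell markers moved with the runs too. In males 3 of 5 atrial markers were lower and 1 higher, 3 of 5 fibroblast and 3 of 3 adipocyte markers were lower, and 2 B cell, 2 neutrophil and 2 endothelial markers were higher, while no macrophage or T and natural killer cell marker was called. In females 2 macrophage markers were lower and 2 smooth muscle and 2 endothelial markers higher. Their part in the members' change was not tested, and what the title numbers mark is not given in the labels.

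The rest of the interferon pathway was read from lists of related genes. Of 20 interferon ligands 0 could be tested. Ifnb1 had 2 counts in all, both in 1 library, Ifng had 21 counts spread over 12 libraries and Ifnab had 34 over 20. All 6 receptor genes were tested, led by Ifngr2 at 36.5 and Ifngr1 at 18.9 CPM per kilobase in sham libraries, against 3.28 for Ifnar1 and 2.27 for Ifnar2; none was called in a comparison against sham. In title numbers 21-40 against 1-20, Ifngr2 fell in males (log2 change -0.34, edgeR adjusted p = 9.41e-06) and Ifnar2 rose in females (0.24, 0.00726).

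Of 58 other interferon-stimulated genes 56 were tested. In male gamma against male sham 55 of 56 were positive with a median of 0.22, 20 had an unadjusted p under 0.05, and 2 were called, beside 5.43% of all genes at an unadjusted p under 0.05 and 0.176% called. Slfn1, a Schlafen protein of T cell quiescence, was at 0.210, 0.729 and 19.7 CPM in male gamma and 0, 0.419 and 1.12 CPM in male sham libraries (log2 change 2.49 ± 0.57; edgeR adjusted p = 0.0265). Ifi209, of the PYHIN family, was at 1.31, 2.18 and 11.2 CPM in male gamma and 0.498, 1.16 and 2.66 CPM in male sham libraries (1.2 ± 0.28; 0.037). Both were highest in male gamma replicate 10. Without it the log2 changes were 0.43 ± 0.47 and 0.68 ± 0.25 (edgeR adjusted p = 0.999 for each), 0 of the 56 were called, 13 had an unadjusted p under 0.05, 44 were positive and the median was 0.16. The median of this list was 0.12 in male mixed, -0.13 in female gamma and 0.14 in female mixed against sham, and 0.30 in female mixed minus gamma. Title numbers 21-40 had 24 of 56 higher than 1-20 in males, where 17% of all tested genes were higher, and 16 higher and 1 lower in females, where 11.9% were higher. In males Helz2, a helicase coactivator (0.79), and Gbp4 (0.96) rose on the log2 scale, as did Nlrc5, the transactivator of MHC class I genes, from the list of negative regulators (0.85).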

How the data were processed

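The authors deposited raw counts as whole numbers, 1 row per Ensembl identifier and 1 column for each of the 80 libraries, per the file headers. FastQC 0.11.9, STAR 2.7.8a and the GRCm39 (mm39) genome are named in the submitters' processing notes; how reads were counted, with which strand setting and on which annotation, is not given in the sources used here. Symbols came from GENCODE vM39, which matched 56323 of 56941 identifiers. edgeR 4.0.16 (R 4.3.3) was used with TMM scaling and its filter on low counts, which kept 15879 genes and at least 99.82% of each library's counts. A quasi-likelihood fit over 8 groups gave the group comparisons, and a fit over each group and run of title numbers gave the run comparisons and the values within runs. The adjusted p (Benjamini-Hochberg) covers all tested genes; the SE is the log2 change divided by the square root of its F statistic. Levels are CPM on TMM-adjusted library sizes, and log2 CPM uses a prior count of 2.

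Members and gene lists were chosen with earlier results of these data known. Named were every member called in a comparison (up to 10 of largest log2 change). Where fewer than 4 were called, some of the 4 of smallest p were named, and in some comparisons none. The 10 highest and 5 lowest members per kilobase and the leading members of libraries that stood apart were named too. From the related lists only some of those called or of smallest p were named. Motifs were searched in GRCm39 around the GENCODE canonical start. Alternatives were DESeq2 1.42.0, limma 3.58.1 voom, RLE size factors, no filter on low counts, a term for the run in each sex, fits of 1 sex alone, each run alone, the title number as a block, and leaving out each library. Same-numbered libraries of the 2 sexes were checked for pairing by the correlation of their deviations. The fit was tested on simulated counts. Taking female gamma replicates 8 and 9 as 1 library, by the rounded mean of their counts, was added after seeing the data.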

Additional observations from a re-analysis of the deposited data

Results flagged for a closer look

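Among the members, 17 values from 12 libraries stood apart from the rest of their group of 10, out of 392 groups of values examined; chance alone would set apart about 5% of groups. Female mixed replicate 10 held 5 of them, all high: Stat2 at 54.1 CPM, Irf7 at 48.4, Oas2 at 81.9, Ifi203 at 53.9 and Sp100 at 68.5. The sum of B and plasma cell markers in this library was also the highest of the 80, at 61.9 CPM against a median of 14.6; their part in these values was not tested. Samhd1 was apart in 4 groups, at 118 CPM in male gamma replicate 10, 41.9 in female mixed replicate 4, 30 in male sham replicate 5 and 62.9 in female sham replicate 10. In male sham replicate 6 Irf1 was high at 29 CPM and Irgm2 low at 15.7. The other values that stood apart were Dhx58 at 0.602 CPM in male gamma replicate 1, Oasl1 at 8.3 in female sham replicate 9, Usp18 at 1.76 in male Western diet replicate 1, Mx1 at 0.486 in female mixed replicate 6, Gbp7 at 7.61 in female Western diet replicate 4 and Iigp1 at 21.6 in female Western diet replicate 7.

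For 7 members the change between title numbers 21-40 and 1-20 differed between males and females, by an edgeR test of the difference itself; 7 of 49 is a smaller share than the 26.9% of all tested genes so called. The male minus female differences in log2 change were 0.66 for Oas2, 0.55 for Gbp6, 0.49 for Xaf1, 0.34 for Ifi203, 0.34 for Gbp9, 0.25 for Trim25 and -0.48 for Gbp5.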

How the results depend on the processing

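In the comparisons of conditions most calls and directions were the same under the alternatives. Within title numbers 1-20 alone, 3 members were called in male Western diet, 1 in the mixed field over the mean of the sexes, 3 in the Western diet over the mean of the sexes and 5 in female mixed minus gamma, and 0 in sham male minus female. DESeq2 called 1 member in female mixed minus gamma (Igtp). With no filter on low counts, and with voom, 0 were called in sham male minus female, where Trim25 had adjusted p of 0.0656 and 0.0534. Parp14 in the Western diet over the mean of the sexes was 0.13 and turned to -0.06 within title numbers 21-40. For the runs, the Ifit1 change in females was lost with voom (adjusted p = 0.0672) and the Trim25 difference between the sexes with no filter on low counts (0.0514). With female gamma replicates 8 and 9 as 1 library, an alternative chosen after seeing the data, Oas2 (0.0528) and Ifit1 (0.0766) were lost in the female runs. The cause of these changes was not tested.

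Leaving out each of the 80 libraries in turn gave 0 to 1 called in male gamma against sham (Irgm2), 0 to 1 in the sex difference for the Western diet (Ifit3b), 0 to 2 in sham male minus female, 13 to 17 for the runs in males, 14 to 23 in females and 7 to 10 for their difference, and 0 in each other comparison of conditions. The Trim25 call was lost without any 1 of 12 sham libraries, 6 of each sex. No strong pairing by title number was seen between the sexes. Over 40 pairs of the same number the correlation of deviations from group means had a median of 0.02, and 8 exceeded 0.1. Of the 40 male libraries 5 correlated best with their own partner, out of the 10 female libraries of that condition. A weak shared effect could be missed by this check. With the title number as a replicate block 0 members were called in each of the 3 sex differences. Depth limits low members most, since Mx1 and Zbp1 rest on few counts in many libraries.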
